A study of Mus musculus with 32 samples.

Results

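The 39 genes described here are cell cycle and proliferation genes, chosen by name and followed gene by gene and as a mean across mouse spinal cord samples. They comprise 2 genes of entry into the cycle (Ccnd1, E2f1), 11 of DNA replication and deoxynucleotide supply (Pcna, Mcm2 to Mcm7, Gins2, Rrm1, Rrm2, Tyms), and 4 encoding cyclins and their kinase (Ccna2, Ccnb1, Ccnb2, Cdk1). A further 8 encode mitotic kinases and checkpoint proteins (Bub1, Bub1b, Aurka, Aurkb, Birc5, Plk1, Melk, Pbk), 2 belong to the ubiquitin ligase that ends mitosis (Cdc20, Ube2c), 10 act on the spindle and in cytokinesis (Kif11, Kif20a, Kif23, Tpx2, Nusap1, Prc1, Ect2, Hmmr, Cenpe, Cenpf), and 2 act on the chromosome itself (Mki67, Top2a). All 39 had a row among the 42524 genes of the count table.

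Bulk RNA of the spinal cord was sequenced from 32 mice, in 8 groups of 4 formed by genotype (wildtype or G93A), treatment (untreated or OKN007) and labelled age (90 or 155 days). G93A mice carry a transgene for human SOD1 with the G93A substitution, driven by the human gene's own promoter in all tissues, on a C57BL/6J background, and develop a motor neuron disease that models amyotrophic lateral sclerosis. The controls were wildtype littermates, and the experimental mice were predominantly female. OKN007 is a nitrone with antioxidant and anti-inflammatory activity that was given in the drinking water; the dose of the sequenced mice and the level of cord taken are not given in the sources used here.

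A cell that divides first raises D-type cyclins, which free E2F factors from the retinoblastoma protein, then loads and fires the MCM helicase to copy its DNA, and finally activates CDK1 with the B-type cyclins to enter mitosis. The transcripts of the later steps are scarce in resting cells and rise from S phase to mitosis, so that they serve as markers of dividing cells in tissue. Neurons of the adult cord do not divide, whereas oligodendrocyte precursors divide slowly and microglia are known to divide in injured or degenerating cord. In bulk RNA, a change in the number of dividing cells and a change in the RNA of each cell cannot be told apart.

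Library totals ran from 19701722 to 30138257 counts (median 26658755), so that 3 counts in the smallest library equal 0.152 CPM (the count scaled to a common library total). Many of the mitotic genes lay below 1 CPM in wildtype mice, where a value rests on few counts. Exons of 10 of the 39 genes (Ccna2, Ccnd1, Cdc20, Gins2, Kif20a, Mcm7, Nusap1, Plk1, Prc1, Ube2c) overlap a gene on the opposite strand, and 4 (Ccnb1, Ccnb2, Pcna, Tyms) have a pseudogene named after them; whether counting used strand is not given in the sources used here, so these values are less certain. The human transgene has no row in the mouse table, so it could not check the genotype labels. Neuron, motor neuron and oligodendrocyte markers were detected in every group, and the neuronal sums were lower in G93A mice at 155 days (7 marker genes, 1958 to 2596 CPM untreated) than in wildtype mice (3175 to 3759 CPM). A score over 9 caudal Hox genes, which varies with the level of cord taken, did not overlap between the genotypes at 155 days. It was 3.78 to 4.56 in wildtype and 1.62 to 3.59 in G93A mice (mean log2 of CPM + 1). Whether it also follows the lower neuronal content was not tested. The liver transcript Alb reached 139 CPM in an untreated G93A mouse and 83.8 CPM in a treated G93A mouse at 155 days, and 46.7 CPM in a treated wildtype mouse at 90 days. Calls that changed without these 3 libraries are given with their comparison.

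The mean log2 CPM of the 39 genes was 0.98 ± 0.10 (SD, n = 4) in untreated wildtype mice at 155 days and 2.37 ± 0.25 in untreated G93A mice. The single wildtype mice measured 1.04, 0.89, 1.09 and 0.89, and the single G93A mice 2.21, 2.74, 2.30 and 2.24. Every untreated G93A mouse lay above every untreated wildtype mouse, and mouse 10 was the highest. The OKN007 groups at 155 days had means of 0.98 ± 0.07 in wildtype and 2.42 ± 0.16 in G93A mice (n = 4 each). At 90 days the 4 group means lay between 1.04 and 1.28, and their mice overlapped. The mean is a description and carries no test. Mice are named by the numbers of their labels, 1 to 16 at each age, in the order untreated wildtype, treated wildtype, untreated G93A and treated G93A, and values are given in that order.

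**Figure D1:**
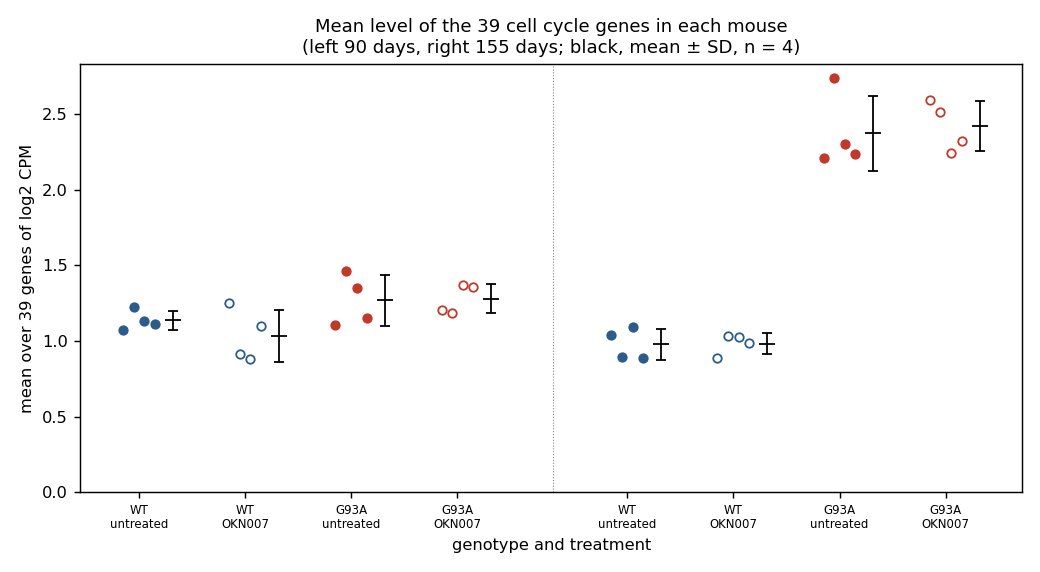
Mean log2 CPM over the 39 cell cycle genes (y axis) in each of the 32 mice, by genotype and treatment (x axis), with 90 days on the left and 155 days on the right; filled points are untreated and open points OKN007-treated mice, and black bars give the mean ± SD of 4 mice. The 8 G93A mice at 155 days sit between 2.21 and 2.74, and all other mice between 0.88 and 1.47.

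The first comparison asked how the spinal cord of late-stage G93A mice differs from that of wildtype littermates without treatment. At 155 days, 35 of the 39 genes were higher in untreated G93A mice and none was lower (edgeR quasi-likelihood test, adjusted p under 0.05 over 18675 genes tested), against 21.3% of all genes tested that were higher. The median log2 fold change of the 39 genes was 1.46, with a range from -0.25 to 3.64, and that of all genes tested was 0.00015. In 33 of the 39 genes all 4 G93A mice lay above all 4 wildtype mice, as they did in 15.6% of all genes tested. The 4 genes without a call were E2f1, Mcm2, Bub1b and Aurka. When the fit included the score of caudal Hox genes, 31 genes were higher and the calls of Mcm7, Tyms, Ect2 and Cenpe were lost. The score and genotype cannot be fully told apart here, because the scores did not overlap. Whether the score reflects cord level or cell content was not tested.

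**Figure D2:**
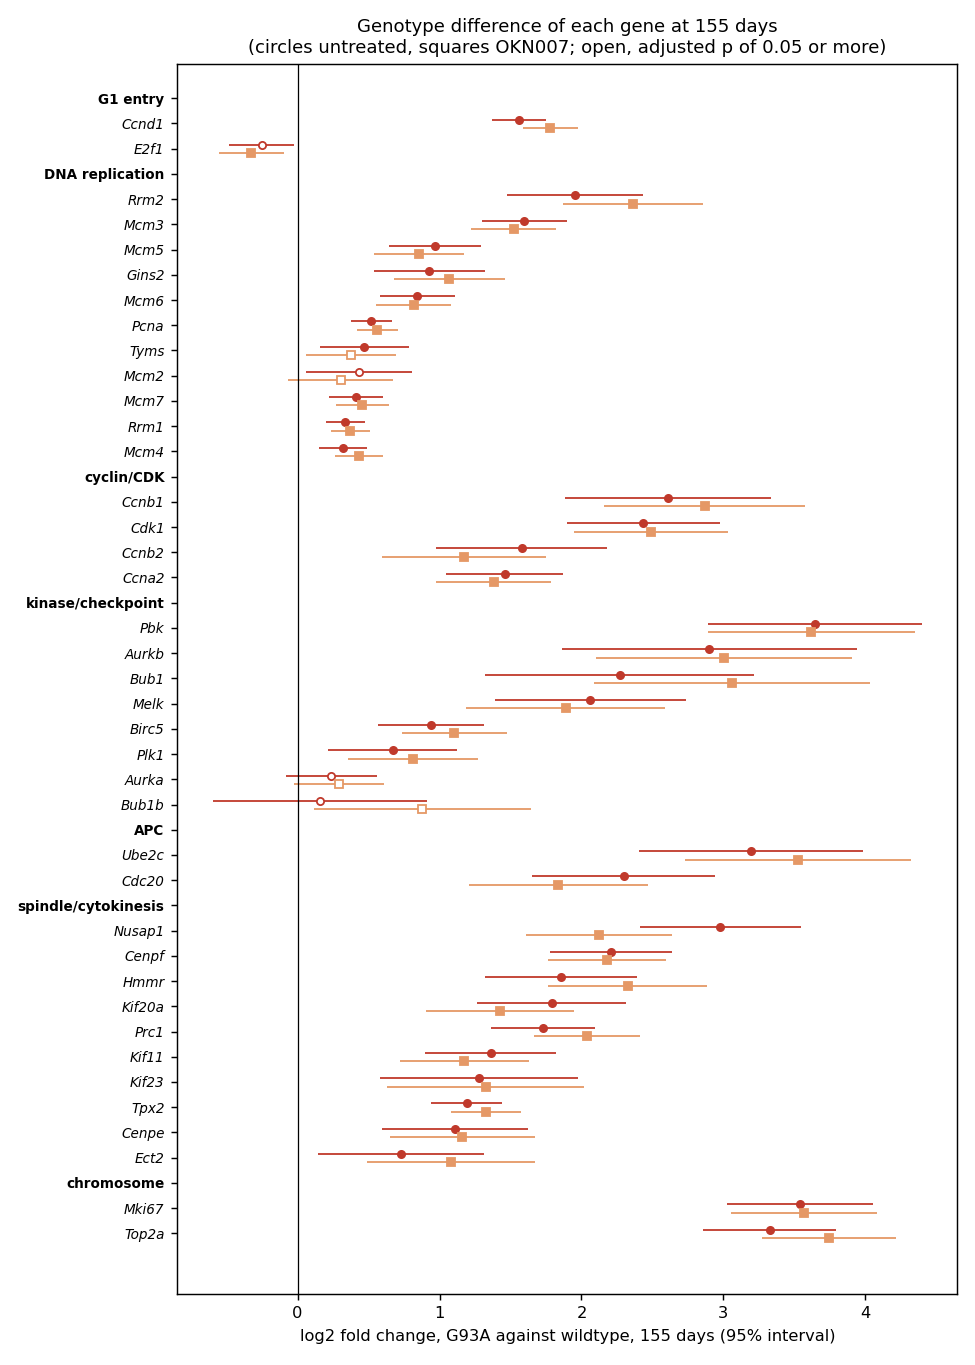
Log2 fold change of each of the 39 genes between G93A and wildtype mice at 155 days (x axis, with 95% interval), by role (y axis); circles are untreated and squares OKN007-treated mice, 4 mice a group, and open symbols had an adjusted p of 0.05 or more. Mki67, Top2a, Pbk and Ube2c lie furthest to the right under both conditions, the replication genes other than Rrm2 and Mcm3 lie below or near 1, and E2f1 is the gene to the left of 0.

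The 2 chromosome genes had the largest median difference of any role (log2 fold change 3.43). Mki67 encodes the Ki-67 protein, which coats mitotic chromosomes and marks cycling cells. It measured 1.22, 0.894, 1.48 and 0.621 CPM in the untreated wildtype mice at 155 days, and 10.2, 17.7, 8.86 and 10.54 CPM in the untreated G93A mice. The lowest G93A mouse thus lay well above the highest wildtype mouse, and the log2 fold change was 3.54 ± 0.25 (SE, an 11.6-fold difference, adjusted p = 1.7e-09). Leaving out each of the 8 mice in turn moved this value between 3.31 and 3.74.

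Top2a encodes the topoisomerase that untangles replicated chromosomes. Its levels were 1.37, 0.724, 1.52 and 1.05 CPM in untreated wildtype mice and 8.27, 15.7, 10.4 and 11.2 CPM in untreated G93A mice. The groups did not overlap, and the log2 fold change was 3.32 ± 0.22 (SE, 10.02-fold, adjusted p = 1.1e-09).

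All 4 cyclin and CDK genes were higher, with a median log2 fold change of 2.01. Cdk1, the kinase that drives entry into mitosis, measured 0.723, 0.937, 0.700 and 0.490 CPM in untreated wildtype mice and 2.73, 5.27, 4.06 and 2.90 CPM in untreated G93A mice. Its groups were separate, with a log2 fold change of 2.44 ± 0.26 (SE, 5.41-fold, adjusted p = 5.1e-07). Its activating cyclin Ccnb1 measured 0.190, 0.255, 0.194 and 0.327 CPM against 1.05, 2.10, 1.63 and 1.14 CPM, a log2 fold change of 2.61 ± 0.35 (SE) that rests on 26 counts over the 4 wildtype libraries. Ccnb2 (1.58 ± 0.29) and Ccna2, the cyclin of S and G2 phase (1.46 ± 0.20), differed by less.

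The ubiquitin ligase genes had a median log2 fold change of 2.75. Ube2c is the E2 enzyme of the anaphase-promoting complex, and measured 0.418, 0.128, 0.272 and 0.163 CPM in untreated wildtype mice against 1.65, 3.50, 2.48 and 1.30 CPM in untreated G93A mice. The groups were separate and the log2 fold change was 3.19 ± 0.38 (SE, adjusted p = 1.9e-06). Cdc20, an activator of the same complex, measured 0.456, 0.809, 0.272 and 0.556 CPM against 1.61, 4.07, 2.44 and 1.95 CPM, a log2 fold change of 2.30 ± 0.31 (SE).

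The mitotic kinases and checkpoint genes were the most varied role: 6 of 8 were higher and the values ran from 0.16 to 3.64. Pbk, a mitotic kinase of proliferating cells, had the largest log2 fold change of the 39 genes, 3.64 ± 0.36 (SE, 12.5-fold, adjusted p = 1.9e-07). It measured 0.190, 0.298, 0.311 and 0.131 CPM in untreated wildtype mice and 2.32, 4.65, 2.23 and 2.11 CPM in untreated G93A mice. The groups were far apart, and mouse 10 stood above the other G93A mice.

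Aurkb, the kinase of the chromosomal passenger complex, lay at the edge of detection in wildtype mice. It measured 0.0380, 0, 0.117 and 0.163 CPM, or 9 counts in all, against 0.673, 0.700, 0.731 and 0.455 CPM in untreated G93A mice (67 counts), with a log2 fold change of 2.90 ± 0.50 (SE, adjusted p = 0.00014). The spindle checkpoint kinase Bub1 measured 0.304, 0.213, 0.155 and 0.0654 CPM against 0.561, 1.48, 0.609 and 0.813 CPM, a log2 fold change of 2.27 ± 0.45 (SE). These groups were separate as well, although the wildtype values rest on 19 counts.

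Melk, a kinase expressed in progenitors and dividing cells, measured 0.304, 0.341, 0.389 and 0.196 CPM in untreated wildtype mice against 1.31, 1.36, 1.34 and 0.976 CPM in untreated G93A mice (log2 fold change 2.06 ± 0.32, SE). Birc5, which encodes survivin of the passenger complex, differed by 0.94 ± 0.18, and the polo-like kinase Plk1 by 0.67 ± 0.22 with overlapping mice. Plk1 lost its call when wildtype mouse 1 or G93A mouse 11 was left out. Bub1b, the partner of Bub1 in the spindle checkpoint, had a log2 fold change of 0.16 ± 0.36 (SE, adjusted p = 0.76), and Aurka, the kinase of the spindle poles, one of 0.24 ± 0.15 (SE, adjusted p = 0.23). The means of Bub1b were 6.82 CPM in wildtype and 7.40 CPM in G93A mice and its direction turned without wildtype mouse 1 (-0.02).

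All 10 spindle and cytokinesis genes were higher, with a median log2 fold change of 1.55 and a range from 0.73 to 2.98. Nusap1, which bundles spindle microtubules, measured 0.533, 0.255, 0.428 and 0.261 CPM in untreated wildtype mice and 2.28, 3.62, 3.33 and 2.18 CPM in untreated G93A mice. The groups were separate (log2 fold change 2.98 ± 0.27, SE, adjusted p = 6.1e-08).

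Cenpf, a kinetochore protein of G2 and mitosis, measured 1.18, 0.766, 1.44 and 0.686 CPM in untreated wildtype mice against 3.67, 5.72, 4.998 and 3.87 CPM in untreated G93A mice (log2 fold change 2.21 ± 0.21, SE). Hmmr, a hyaluronan-binding protein that also acts at the spindle, measured 0.837, 0.468, 0.661 and 0.654 CPM against 2.51, 2.72, 1.63 and 2.37 CPM (1.85 ± 0.26). For both genes the lowest G93A mouse lay above the highest wildtype mouse. The kinesins Kif20a (1.79), Kif11 (1.36) and Kif23 (1.28), the cytokinesis regulator Prc1 (1.73), the spindle assembly factor Tpx2 (1.19) and the kinetochore motor Cenpe (1.11) were also higher on the log2 fold change scale. Ect2, the RhoA activator of cytokinesis, had the smallest difference (0.73 ± 0.28, SE, adjusted p = 0.045), which lost its call without wildtype mouse 1, wildtype mouse 4 or G93A mouse 10.

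The replication genes moved less: 10 of 11 were higher, but their median log2 fold change was 0.52. Rrm2, the regulated subunit of ribonucleotide reductase, measured 1.29, 2.17, 1.40 and 1.63 CPM in untreated wildtype mice and 4.49, 9.14, 6.09 and 4.85 CPM in untreated G93A mice. Its log2 fold change was 1.96 ± 0.23 (SE, 3.88-fold, adjusted p = 1.7e-06) and its groups were separate. The constitutive subunit Rrm1 differed by 0.34 ± 0.07 (SE), from 34.1 CPM in untreated wildtype to 41.7 CPM in untreated G93A mice.

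Pcna, the sliding clamp of the DNA polymerases, is also used in DNA repair. It measured 49.0, 47.2, 48.5 and 44.1 CPM in untreated wildtype mice and 60.4, 68.2, 73.5 and 60.2 CPM in untreated G93A mice. The groups were separate although the log2 fold change was only 0.52 ± 0.07 (SE, 1.43-fold, adjusted p = 7.9e-06).

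The 6 subunits of the MCM helicase, which form a ring of equal parts, did not differ by equal amounts. Their log2 fold changes were 0.43 ± 0.18 for Mcm2 (adjusted p = 0.060), 1.60 ± 0.14 for Mcm3, 0.32 ± 0.08 for Mcm4, 0.97 ± 0.15 for Mcm5, 0.84 ± 0.13 for Mcm6 and 0.41 ± 0.09 for Mcm7 (SE). Whether these subunits differed from each other was not tested. The helicase partner Gins2 differed by 0.93 ± 0.19, and the thymidylate synthase gene Tyms by 0.47 ± 0.15, a call that was lost without wildtype mouse 1 or G93A mouse 10.

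The 2 genes of cycle entry went apart. Ccnd1, which encodes cyclin D1, measured 49.3, 44.4, 47.6 and 41.7 CPM in untreated wildtype mice and 120, 153, 127 and 123 CPM in untreated G93A mice. The groups were separate, and at a log2 fold change of 1.56 ± 0.09 (SE, 2.95-fold, adjusted p = 2.2e-10) it had the smallest adjusted p of the 39 genes. E2f1, a transcription factor that activates S-phase genes, measured 20.3, 17.1, 20.7 and 18.8 CPM against 14.6, 15.1, 15.2 and 17.6 CPM. Its log2 fold change was -0.25 ± 0.11 (SE, adjusted p = 0.075), and the groups overlapped by 1 G93A mouse; without that mouse (mouse 12, which also had the highest Alb) the gene passed the test as lower (-0.32, adjusted p = 0.036), as it did without the libraries with high Alb (-0.31, adjusted p = 0.046).

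**Figure D3:**
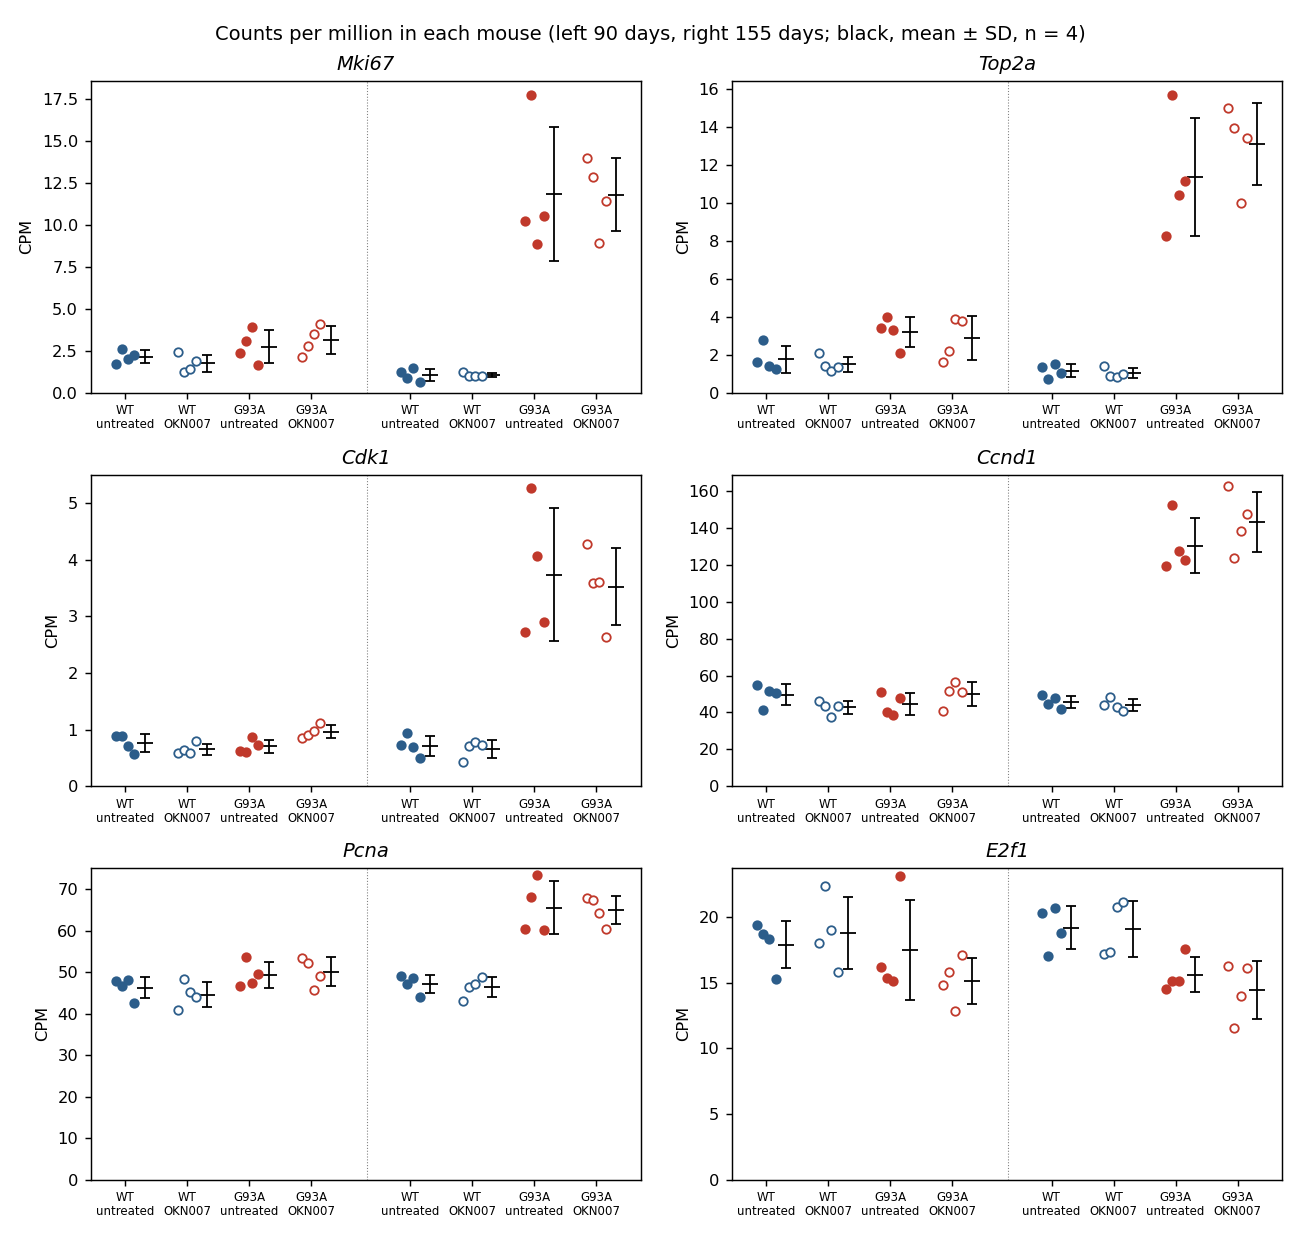
CPM (y axes, from 0) of Mki67, Top2a, Cdk1, Ccnd1, Pcna and E2f1 in each mouse, by genotype and treatment (x axes), 90 days on the left and 155 days on the right of each panel; filled points are untreated, open points OKN007-treated, and black bars give the mean ± SD of 4 mice. The G93A mice at 155 days lie far above all other mice for Mki67, Top2a, Cdk1 and Ccnd1, above them by a smaller margin for Pcna, and at the low end for E2f1.

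The promoters of these genes are shown because genes of the late cell cycle are known to share 2 kinds of short element, the cell cycle genes homology region (CHR) and the CCAAT box, whereas genes of S phase often hold E2F elements. RefSeq start sites on GRCm38.p6 were matched for 31 of the 39 genes; Ccnd1, Mcm4, Gins2, Ccna2, Aurkb, Pbk, Kif20a and Tpx2 were not matched. The 150 bases before the start are printed 5′ to 3′ on the strand of the gene for 4 mitotic genes with large differences and for Mcm6. Capitals mark the letters TTTGAA or TTCGAA (CHR), CCAAT, and TTCCCGC or TTTGGCG (E2F), each on either strand; these motifs do not overlap in the sequences printed.
Top2a, chr11:99024190-99024339, minus strand: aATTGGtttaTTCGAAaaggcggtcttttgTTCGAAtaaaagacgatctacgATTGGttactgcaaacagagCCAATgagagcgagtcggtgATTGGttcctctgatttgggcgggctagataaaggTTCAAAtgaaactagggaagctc
Mki67, chr7:135716380-135716529, minus strand: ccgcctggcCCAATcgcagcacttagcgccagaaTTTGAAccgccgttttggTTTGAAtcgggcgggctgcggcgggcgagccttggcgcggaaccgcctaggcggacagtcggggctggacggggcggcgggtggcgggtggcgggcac
Cdk1, chr10:69352913-69353062, minus strand: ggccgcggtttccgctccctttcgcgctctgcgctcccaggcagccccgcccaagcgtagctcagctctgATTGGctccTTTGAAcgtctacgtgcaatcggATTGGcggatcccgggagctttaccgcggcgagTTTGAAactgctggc
Ube2c, chr2:164769779-164769928, plus strand: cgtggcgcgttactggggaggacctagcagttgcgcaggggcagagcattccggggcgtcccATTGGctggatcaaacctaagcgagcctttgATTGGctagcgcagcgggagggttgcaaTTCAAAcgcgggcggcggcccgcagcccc
Mcm6, chr1:128359706-128359855, minus strand: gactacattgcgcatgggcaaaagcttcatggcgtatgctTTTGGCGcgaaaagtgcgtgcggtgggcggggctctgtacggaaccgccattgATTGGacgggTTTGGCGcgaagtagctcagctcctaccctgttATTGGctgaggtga

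In these stretches Top2a holds 4 CCAAT boxes, a CHR match that ends 18 bases before the start and TTCGAA at 2 further places, and Cdk1 and Ube2c hold 2 CCAAT boxes each. Mcm6 holds 2 E2F matches and 2 CCAAT boxes and no CHR match. Over the whole window of 250 bases before to 50 after the start, 18 of the 31 genes (58.1%) held both a CHR and a CCAAT match, against 8.61% of 27025 genes with a promoter of the same length. The CHR letters alone were held by 58.1% against 21.7%, CCAAT by 83.9% against 41.1%, and the E2F letters by 6 genes, or 19.4% against 6.83%. Of the 18 genes with both, 15 were higher in untreated G93A mice at 155 days, as were 12 of the 13 others; Mcm2, Bub1b and Aurka hold both and had no call. A match describes letters in a window and no binding was measured.

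Treated mice of both genotypes gave the same comparison in other animals. At 155 days, 34 of the 39 genes were higher in OKN007-treated G93A mice than in OKN007-treated wildtype mice and 1 was lower, against 23.3% of all genes tested that were higher and 18.2% that were lower. The median log2 fold change was 1.33 (0.018 over all genes tested), and in 33 genes all 4 G93A mice lay above all 4 wildtype mice, against 20.2% of all genes tested. Top2a (log2 fold change 3.74 ± 0.23, SE), Pbk (3.62 ± 0.35), Mki67 (3.57 ± 0.24) and Ube2c (3.53 ± 0.38) had the largest values. E2f1 was the gene that was lower (-0.33 ± 0.11, SE, adjusted p = 0.021), a call lost without wildtype mouse 7, wildtype mouse 8 or G93A mouse 14. Mcm2, Tyms, Bub1b and Aurka had no call, with values of 0.30, 0.38, 0.88 and 0.29; without wildtype mouse 8 Bub1b passed the test, and without G93A mouse 16 Tyms did. When the score of caudal Hox genes was in the fit, the calls of E2f1 (adjusted p = 0.074), Cenpe (0.072) and Ect2 (0.081) were lost.

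In treated mice, Mki67 measured 1.23, 0.999, 0.974 and 0.971 CPM in wildtype and 13.9, 12.9, 8.90 and 11.4 CPM in G93A mice at 155 days. Top2a measured 1.38, 0.888, 0.824 and 1.01 CPM against 15.02, 13.98, 10.02 and 13.4 CPM. The treated groups of these genes did not overlap either. E2f1 measured 17.2, 17.3, 20.8 and 21.2 CPM in treated wildtype and 16.3, 11.6, 13.96 and 16.1 CPM in treated G93A mice, and here every G93A mouse lay below every wildtype mouse.

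With both treatments averaged, 37 genes were higher and 1 was lower in G93A mice at 155 days, against 28.8% and 25.8% of all genes tested. Mcm2 (0.37), Tyms (0.42) and Aurka (0.27) were among those higher and E2f1 was lower (-0.29 ± 0.08, SE, adjusted p = 0.0037). Bub1b remained without a call (0.52 ± 0.26, adjusted p = 0.095). The calls of Mcm2, Tyms, Ect2, Aurka and E2f1 were lost when the fit included the score of caudal Hox genes, under which the value of Mcm2 was -0.01. The call of Aurka was also lost by DESeq2 (adjusted p = 0.096), with RLE factors (0.058), with no filter on low counts (0.20), with all 32 mice in 1 fit (0.12) and without the libraries with high Alb (0.068). It was lost as well without wildtype mouse 2, 3, 4, 5 or 7 or G93A mouse 10, 12, 13, 14 or 16. Bub1b passed the test without wildtype mouse 4 or 8 or G93A mouse 11, and with no filter on low counts (adjusted p = 0.0073).

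The second question was whether OKN007 changed the expression of these genes. None of the 39 genes passed the test when OKN007-treated G93A mice were set against untreated ones at 155 days, where 0% of all genes tested did, with 1 gene at an unadjusted p under 0.05 (Aurkb, against 4.04% of all genes) and 0 by DESeq2. The median log2 difference was 0.03. Aurkb was named after its values were seen, and no share of all genes without overlap is given for this comparison. Aurkb measured 1.21, 1.04, 1.05 and 1.08 CPM in treated against 0.455 to 0.731 CPM in untreated G93A mice, without overlap, with a log2 fold change of 0.79 ± 0.35 (SE, adjusted p = 1.0).

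Intervals of the treatment difference in G93A mice at 155 days were narrow for the abundant genes and wide for the scarce ones. The log2 fold change was 0.01 for Mki67 (95% interval -0.41 to 0.42), 0.21 for Top2a (-0.17 to 0.59), -0.06 for Cdk1 (-0.53 to 0.40), 0.14 for Ccnd1 (-0.04 to 0.33) and -0.00 for Pcna (-0.15 to 0.14). These intervals are not adjusted for the number of genes, and hold the differences that these data are compatible with.

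In wildtype mice at 155 days none of the 39 genes passed the test either (0% of all genes tested; edgeR, with 2 genes at an unadjusted p under 0.05, against 2.94% of all genes, and 0 by DESeq2). Nusap1 had the largest value, 0.93 ± 0.30 (SE, adjusted p = 1.0 by edgeR). It measured 0.538 to 0.827 CPM in treated and 0.255 to 0.533 CPM in untreated wildtype mice, groups that did not overlap. This gene was also named after its values were seen, and no share of all genes without overlap is given here. The test of genotype by treatment at 155 days called none of the 39 (0% of all genes tested; edgeR, 1 at an unadjusted p under 0.05, against 2.34% of all genes, and 0 by DESeq2), so the genotype difference was not shown to change with treatment. At 90 days the corresponding edgeR tests in G93A mice, in wildtype mice and of genotype by treatment called 0 of the 36 genes tested (0% of all genes in each), with 0, 0 and 1 genes at an unadjusted p under 0.05 and 0 by DESeq2. The shares of all genes at that level were 5.56%, 4.07% and 2.81%.

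At 90 days the genotypes lay close together. The scarce genes Ccnb1, Bub1 and Aurkb did not pass the filter on low counts at this age, which left 36 of 39. In untreated mice no gene was called (0% of all genes tested; edgeR, 4 of the 36 at an unadjusted p under 0.05, against 5.96% of all genes; 0 by DESeq2), and the median log2 fold change was 0.11 (0.0004 over all genes tested). In treated mice no gene was called either (0% of all genes tested; edgeR, 6 at an unadjusted p under 0.05, against 3.95% of all genes; 0 by DESeq2), with a median of 0.22.

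With treatments averaged, at 8 mice a genotype, 0 of the 36 genes were called by edgeR and 1 by DESeq2, while 0.0159% of all genes tested were higher. At an unadjusted p under 0.05, 8 genes were higher, Pcna, Kif11, Tpx2, Ect2, Hmmr, Cenpf, Mki67 and Top2a, and Plk1 was lower (-0.45), against 3.74% of all genes that were higher at that level. The chromosome and spindle genes had the largest medians, 0.77 and 0.42, and the replication genes had a median of 0.05.

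Top2a was the gene with the smallest p at 90 days (log2 fold change 0.92 ± 0.22, SE, adjusted p = 0.21, and 0.048 by DESeq2 or 0.0083 without the filter on low counts). It measured 1.64, 2.79, 1.39 and 1.23 CPM in untreated wildtype and 3.42, 3.97, 3.31 and 2.10 CPM in untreated G93A mice. In treated mice it measured 2.08, 1.39, 1.13 and 1.35 CPM against 1.59, 2.21, 3.91 and 3.78 CPM. The genotypes overlapped under both conditions, since 1 G93A mouse of each treatment lay below the highest wildtype mouse.

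Mki67 measured 1.68, 2.60, 2.03 and 2.25 CPM in untreated wildtype and 2.37, 3.08, 3.92 and 1.62 CPM in untreated G93A mice at 90 days, and 2.398, 1.24, 1.43 and 1.91 CPM against 2.13, 2.81, 3.50 and 4.09 CPM in treated mice. These groups overlapped, with a log2 fold change over both treatments of 0.62 ± 0.20 (SE, adjusted p = 0.47). Cenpf, with the second smallest p of the 36 genes, had a value of 0.68 ± 0.19 (SE, adjusted p = 0.34).

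Cdk1 measured 0.894, 0.891, 0.714 and 0.572 CPM in untreated wildtype and 0.622, 0.607, 0.861 and 0.723 CPM in untreated G93A mice at 90 days, which overlapped almost fully. In treated mice the values were 0.588, 0.641, 0.587 and 0.792 CPM against 0.853, 0.909, 0.977 and 1.12 CPM, where the groups were separate (log2 fold change 0.57, adjusted p = 1.0 by edgeR). Ccnd1, which separated the genotypes most clearly at 155 days, measured 54.9, 41.5, 51.8 and 50.7 CPM in untreated wildtype against 51.0, 40.1, 38.8 and 47.6 CPM in untreated G93A mice at 90 days. In treated mice Ccnd1 measured 46.4, 43.3, 37.6 and 43.6 CPM against 40.6, 51.5, 56.7 and 51.3 CPM.

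Pcna measured 48.0, 46.5, 48.1 and 42.5 CPM in untreated wildtype and 46.7, 53.7, 47.3 and 49.5 CPM in untreated G93A mice at 90 days, and 40.8, 48.3, 45.2 and 44.0 CPM against 53.5, 52.3, 45.6 and 49.1 CPM in treated mice. The E2f1 values were 19.4, 18.7, 18.3 and 15.3 CPM against 16.2, 15.4, 15.1 and 23.2 CPM untreated, and 18.01, 22.4, 19.0 and 15.8 CPM against 14.8, 15.8, 12.9 and 17.1 CPM treated. All of these groups overlapped.

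The genotype difference at 155 days was then set against that at 90 days in a fit of all 32 mice. In untreated mice the difference was larger at 155 days for 26 of the 39 genes and smaller for none, against 12.9% of all genes tested that were larger. Ccnb1, Bub1 and Aurkb had failed the filter on low counts at 90 days. They passed it here through the mice of 155 days, where they are high in G93A mice. The filter thus favours such a change for these genes. The median of this change was 1.07 on the log2 scale (-0.01 over all genes tested). Mki67 (3.15 ± 0.38), Ube2c (3.11 ± 0.53), Pbk (3.10 ± 0.53) and Nusap1 (2.68 ± 0.47) had the largest values among the genes called (SE). Leaving out each mouse in turn kept a gene's call 394 times and lost it 22 times, and genes without a call gained one 20 times. With no filter on low counts 4 calls were lost. With the score of caudal Hox genes in the fit, Cenpe (adjusted p = 0.12), Aurkb (0.085) and Kif20a (0.11) lost their calls and Plk1 gained one (0.034). Without the libraries with high Alb, Bub1 (adjusted p = 0.047) and Kif23 (0.049) gained one. With treatments averaged the count was 33, against 19.6% of all genes tested, and E2f1, Mcm4, Tyms, Bub1b, Aurka and Ect2 were the genes without a call. Mcm2 lost its call with the score of caudal Hox genes in the edgeR fit (adjusted p = 0.32). Here leaving out each mouse in turn kept a gene's call 1032 times and lost it 24 times.

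The 2 ages were different animals, and whether they were collected or sequenced together is not given in the sources used here, so that age and such handling cannot be told apart. In G93A mice with treatments averaged, 36 of the 39 genes were higher at 155 than at 90 days and none was lower, against 27.7% of all genes tested that were higher. The median was 1.15 (0.008 over all genes tested), and Pbk (2.65 ± 0.24), Bub1 (2.31 ± 0.45) and Ccnb1 (2.28 ± 0.27) had the largest values (SE). Bub1, Ccnb1 and Aurkb passed the filter on low counts only through the mice of 155 days. Their place in this count and ranking is less certain. In 26 of the 39 genes all 8 older mice lay above all 8 younger ones, as they did in 11.5% of all genes tested. E2f1, Tyms and Bub1b had no call. Plk1 lost its call without G93A mouse 9 or 14 of 90 days, or without 10, 11 or 14 of 155 days.

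In wildtype mice the same contrast was small and went both ways. At 155 days 4 genes were higher and 7 were lower, against 24.0% and 20.2% of all genes tested. Both counts are smaller shares of the cell cycle genes than these shares of all genes tested. The calls in wildtype mice thus describe single genes and do not set the cell cycle genes apart from other genes. The genes that were lower were Ube2c (-1.16 ± 0.30), Mki67 (-0.88 ± 0.21), Plk1 (-0.67 ± 0.18), Top2a (-0.57 ± 0.22), Gins2 (-0.40 ± 0.13), Ccna2 (-0.40 ± 0.14) and Mcm3 (-0.30 ± 0.09; SE). Aurka (0.39), Mcm6 (0.21), Mcm4 (0.20) and Rrm1 (0.17) were higher, and these 4 calls were lost when the untreated wildtype mouse 4 of 90 days was left out, which left 7 calls, all lower. Mcm6 also lost its call without wildtype mouse 2 or 3 (untreated) or 7 (treated) of 90 days, or without 2, 3, 5, 6 or 7 of 155 days. Top2a lost its call without mouse 2 or 5 of 90 days, or without 2, 4, 6, 7 or 8 of 155 days. The call of Aurka was also lost without mouse 1, and that of Mcm4 without mouse 6, both of 155 days. Mcm6 also lost its call without the libraries with high Alb (adjusted p = 0.056), and Mcm3 (0.077), Ccna2 (0.066) and Gins2 (0.053) lost theirs when the score of caudal Hox genes was in the fit. Mki67 had means of 1.94 CPM at 90 days and 1.05 CPM at 155 days over 8 wildtype mice each, and 2.94 and 11.8 CPM in G93A mice. Its larger genotype difference at 155 days thus came with a lower wildtype level as well as a higher G93A level.

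**Figure D4:**
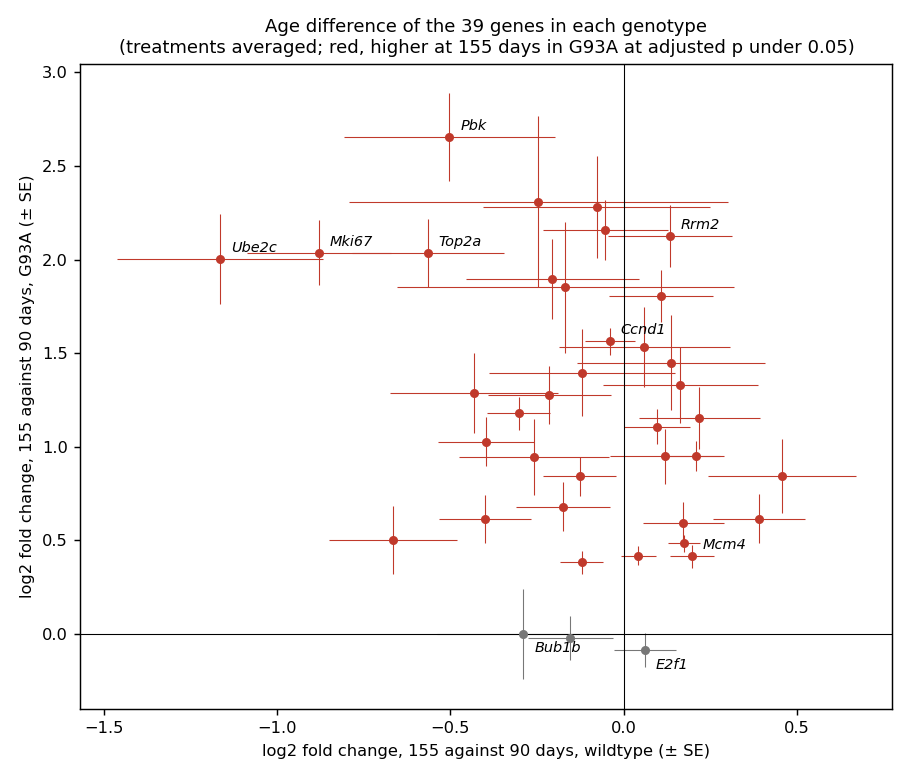
Log2 fold change between 155 and 90 days in wildtype (x axis) and in G93A mice (y axis) for the 39 genes, treatments averaged, 8 mice a genotype and age, with bars of ± 1 SE; red points were higher at 155 days in G93A mice at an adjusted p under 0.05. The points spread on both sides of 0 along the x axis (from -1.16 to 0.46), while 36 of them lie above 0.38 on the y axis and E2f1, Bub1b and Tyms lie at or just below 0.

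A further 110 genes of the cell cycle, listed by role, extended the comparison of untreated mice at 155 days. In that comparison 21.3% of all genes tested were higher, and the share that was lower is not given here. Of 50 other genes of mitosis, 35 were higher and 2 were lower in G93A mice, with a median log2 fold change of 1.16. The kinesin Kif18b (2.81 ± 0.47, SE), the kinetochore subunit Spc25 (2.78 ± 0.20) and the spindle protein Troap (2.70 ± 0.51) had the largest values, and Cit and Hjurp were lower (-0.51 and -0.35). Of 36 other replication genes tested, 16 were higher and 2 were lower, with a median of 0.26. The histone chaperone subunit Chaf1b (2.09 ± 0.26), the ubiquitin ligase receptor Dtl (2.03 ± 0.35) and the DNA methylation cofactor Uhrf1 (1.91 ± 0.21) led them, and Dut and Slbp were lower (-0.31 and -0.17). As among the 39, the medians were larger in mitosis than in replication; the difference between the roles was not tested.

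Of 16 other genes of the G1 machinery, 10 were higher and 1 was lower, against 21.3% of all genes tested that were higher. Myc, a transcription factor of growth (2.16 ± 0.18, SE), the E2F repressor E2f8 (1.83 ± 0.40) and the cyclin D partner Cdk6 (1.45 ± 0.17) had the largest values. The gene that was lower was Ccne1, which encodes cyclin E1 (-0.53 ± 0.14, adjusted p = 0.0046 by edgeR).

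Inhibitors of the cyclin-dependent kinases, which hold cells out of the cycle, rose in part in the same mice. Of 7 tested, 4 were higher and 1 was lower, against 21.3% of all genes tested that were higher. Cdkn2a, which encodes p16 and Arf, had a log2 fold change of 3.03 ± 0.39 (SE, 1.003 ± 0.25 against 0.118 ± 0.082 CPM, SD, n = 4), and Cdkn2c, which encodes p18, one of 2.11 ± 0.21. Cdkn2b, the p15 gene (0.97 ± 0.31), lost its call without wildtype mouse 1, wildtype mouse 3 or G93A mouse 11. Cdkn1a, the p21 gene and a p53 target, measured 16.7, 15.6, 15.4 and 48.2 CPM in untreated wildtype and 29.7, 32.5, 133 and 25.4 CPM in untreated G93A mice. Its log2 fold change of 1.23 ± 0.47 (SE, adjusted p = 0.047) fell to 0.32 (adjusted p = 0.53) without G93A mouse 11, and the call was also lost without wildtype mouse 1, 2 or 3. Cdkn1c, the p57 gene, was lower (-0.50 ± 0.14), and Cdkn1b (0.01 ± 0.08) and Cdkn2d (-0.14 ± 0.11) had no call.

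**Figure D5:**
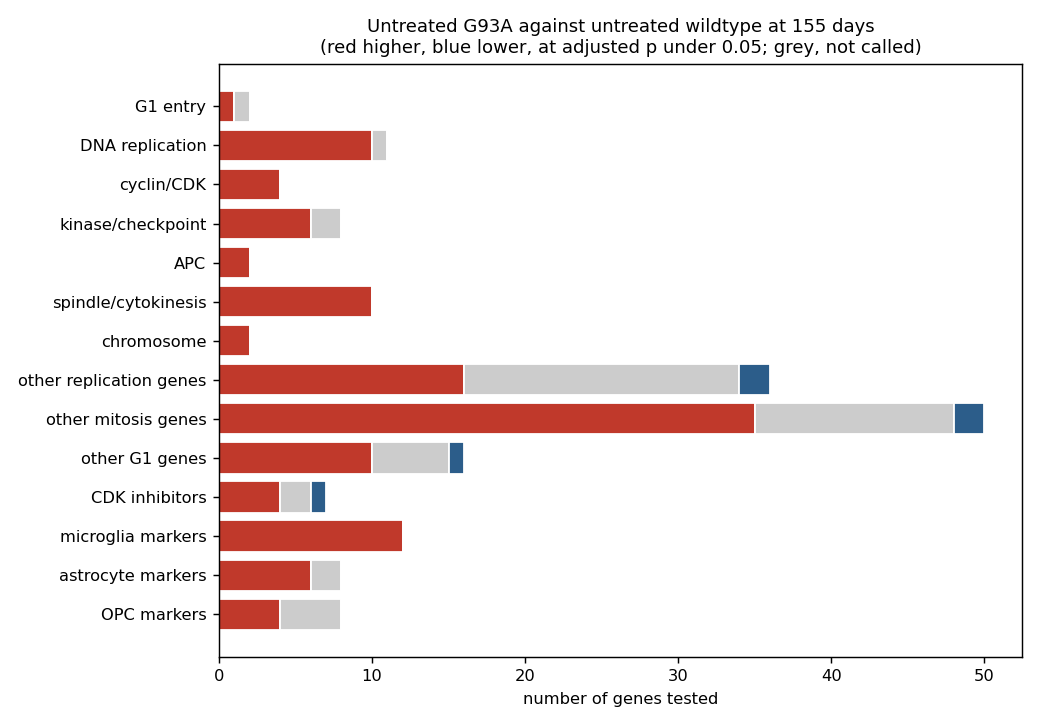
Number of genes tested (x axis) in each role of the 39 genes, in the other cell cycle lists and in 3 lists of cell type markers (y axis), split into those higher (red), lower (blue) or not called (grey) in untreated G93A against untreated wildtype mice at 155 days, 4 mice a group, at an adjusted p under 0.05. In the list of other replication genes 18 of 36 were not called, in the entry role of the 39 genes 1 of 2 was not called (E2f1), and all 12 microglia markers are red.

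Markers of several cell types moved with the 39 genes. Among all genes tested in untreated mice at 155 days, 21.3% were higher in G93A mice. All 12 microglia markers were higher in untreated G93A mice at 155 days (median log2 fold change 2.56), and their summed level ran from 1878 to 3606 CPM in untreated and from 2328 to 3010 CPM in treated G93A mice, against 390 to 493 and 363 to 410 CPM in wildtype mice. At 90 days the sums were 458 to 562 CPM in wildtype and 468 to 754 CPM in G93A mice. Of the microglia genes, those of activated cells such as Cd68 (4.56) and Trem2 (3.53) differed most and the homeostatic genes Tmem119 (0.65) and P2ry12 (0.39) least. Their part in the cell cycle result was not tested.

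Of 8 astrocyte markers 6 were higher, with sums of 15042 to 18935 CPM in untreated G93A against 6545 to 7077 CPM in untreated wildtype mice. In untreated wildtype mice Gfap (2196 CPM) and Aldoc (1892 CPM) made up much of a mean sum of 6801 CPM. The astrocyte sum thus says little about the scarcer markers. Of 8 markers of oligodendrocyte precursors 4 were higher (Gpr17, Cspg4, Neu4 and Pdgfra, with values from 0.42 to 1.002). The sums overlapped (1624 to 1810 against 1568 to 1749 CPM). In untreated wildtype mice Bcas1 made up 1267 CPM of a mean sum of 1660 CPM, against 34.4 CPM for Pdgfra. The sum thus says little about the other markers. Of 6 ependymal markers, Rarres2 (1.62) and Foxj1 (0.38) were higher, with sums of 69.3 to 99.97 CPM in untreated G93A against 57.9 to 72.5 CPM in untreated wildtype mice, which overlapped, and of 70.5 to 100.4 against 57.7 to 66.3 CPM in treated mice, which did not. Of 6 endothelial markers 0 were called by edgeR in untreated mice, and 2 had an unadjusted p under 0.05. Of 4 T cell markers tested, Cd8a and Cd3g were higher. Their means in untreated wildtype mice were 0.0588 and 0.110 CPM, which rest on few counts. The sum over all 8 T cell markers was 2.59 to 3.89 CPM in untreated wildtype and 4.68 to 6.38 CPM in untreated G93A mice. In untreated wildtype mice it came mostly from Trac (2.07 CPM) and Lck (0.785 CPM), and 5 of the 8 genes had 3 counts or fewer in every library. The part of these cells in the result was not tested.

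Precursors of blood cells also divide. The sum of 10 markers of marrow granulocyte precursors was 1.22 to 2.18 CPM in untreated G93A and 0.875 to 4.04 CPM in untreated wildtype mice at 155 days, and in the G93A mice 5 of the 10 genes were at 3 counts or fewer in every library and 2 of them, Elane and Ctsg, at 0. Of 7 erythroid markers found in the table the 5 tested had no call, and their sum was not higher in G93A mice (47.3 to 95.3 against 71.2 to 155 CPM). The part of these cells in the result was not tested.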

How the data were processed

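RNA of the spinal cord was sequenced in 32 samples by the authors from a stranded mRNA library kit. The deposited table holds raw read counts per gene for 42524 genes, with 1 column a sample, each taken here as 1 mouse. Whether RNA of several mice was pooled is not given in the sources used here. The submitters' processing notes name FastQC, STAR, featureCounts and edgeR with mm39, while the study's methods name Trimmomatic, STAR and HTSeq with an older annotation; which of them made the table is not settled by the sources used here, so no gene coordinates are given other than those of the promoter table. How reads were counted could shift genes that share sequence or overlap.

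Counts were tested as deposited with edgeR 4.0.16 in R 4.3.3: genes were filtered with filterByExpr, scaled with TMM factors, fitted with the quasi-likelihood model and adjusted by the Benjamini-Hochberg method over all genes tested, with calls at an adjusted p under 0.05. The 16 mice of each age were fitted as 4 groups, and all 32 as 8 groups for comparisons across ages. CPM values were computed from the library totals, 19701722 to 30138257 counts, adjusted by TMM factors over all 32 mice. The mean over the 39 genes was taken from log2 CPM on the same scale, with a prior count of 2. Groups were taken from the sample labels. Among 48 pairs of mice of 1 group none held identical values, and the lowest chi-square per gene was 3.8, above sampling noise; the labels do not say more of the mice, so p-values measure the spread between these samples. The fit was first tested on simulated data into which changes of set size had been built.

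The 39 genes, the other lists and the tests were chosen with earlier results of these data known. Values per mouse are given for Mki67, Top2a, Cdk1, Pcna, Ccnd1 and E2f1 and for the 14 genes called with the largest change in untreated mice at 155 days, and the 3 largest changes are named from each other cell cycle list. Aurkb and Nusap1 under treatment were named after their values were seen. Alternatives were RLE factors, DESeq2 1.42.0, other filters and thresholds, other sets of samples in the fit, the caudal Hox score as a covariate, prior counts of 0.5 and 5, the sample number as a block, the data without the 3 libraries with high Alb, and each mouse left out in turn. Promoters came from a RefSeq table on GRCm38.p6.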

Additional observations from a re-analysis of the deposited data

Results flagged for a closer look

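Of 144 groups of 4 mice tested, 136 in 17 of the genes and 8 for the mean over the 39 genes, 9 held a mouse far from the other 3, all 9 in single genes, where chance gives about 1 in 20 groups. The high mice were E2f1 in untreated G93A mice at 90 days (23.2 CPM, nearest 16.2), Bub1 in treated G93A mice at 155 days (1.51 CPM, nearest 0.977) and Aurkb in treated G93A mice at 90 days (0.504 CPM, nearest 0.225). Cdc20 had a high mouse in untreated wildtype (1.12 CPM, nearest 0.654) and in untreated G93A mice (1.35 CPM, nearest 0.861) at 90 days, and Ube2c in treated wildtype mice at 90 days (0.679 CPM, nearest 0.420). At 155 days Mki67 had a high mouse among treated wildtype mice (1.23 CPM, nearest 0.999), Pbk one among untreated G93A mice (4.65 CPM, nearest 2.32), and Melk a low one in the same group (0.976 CPM, nearest 1.31).

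The genotype difference was larger at 155 than at 90 days for 26 of the 39 genes in untreated mice, against 12.9% of all genes tested. With treatments averaged it was larger for 33, against 19.6%, both by the interaction of genotype and age in edgeR. On the log2 scale the change of the difference in untreated mice was 1.68 for Ccnd1, 0.39 for Pcna, 1.67 for Rrm2, 2.004 for Ccnb1, 2.53 for Cdk1, 2.51 for Aurkb and 1.76 for Melk. It was 3.10 for Pbk, 1.93 for Cdc20, 3.11 for Ube2c, 2.68 for Nusap1, 1.35 for Cenpf, 3.15 for Mki67 and 2.44 for Top2a. Ccnb1 and Aurkb passed the filter on low counts only through the mice of 155 days, which favours such a change.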

How the results depend on the processing

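The count of genes called in untreated mice at 155 days (35) stayed within 1.5 times of that value under every alternative run. With a minimum log2 fold change of 1 it was 24. A minimum log2 fold change of 1 lowered the counts to 25 of 38 with treatments averaged at 155 days, to 22 of 36 for age in G93A mice and to 1 of 11 for age in wildtype mice. The shares of all genes tested at that minimum are not given here. At 90 days with treatments averaged, 1 gene (Top2a) was called with no filter on low counts and 1 (Top2a) by DESeq2, against 0. Leaving out each mouse in turn gave 7 to 11 calls for age in wildtype mice. Bub1b turned to -0.020 in untreated mice without wildtype mouse 1, in a range up to 0.58 over the mice left out, and Mcm2 to -0.063 in treated mice and -0.015 with treatments averaged under the caudal Hox covariate; the cause was not tested.

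Sample numbers are shared between the ages by different mice. Over 16 pairs of equal number the correlation of deviations ran from -0.215 to 0.133 with 2 over 0.1. No reference was made for such values, so they cannot settle whether equal numbers share more than a name. With the replicate block the counts were 9 for age in wildtype mice and 36 for age in G93A mice. They were 26 for the change of the genotype difference in untreated mice and 33 with treatments averaged. Genes at few counts limit what can be detected at 90 days, where 3 of the 39 were not tested.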
